A study of Mus musculus with 2 samples.

Results

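The simple-epithelial keratins described here were the 8 genes Krt7, Krt8, Krt18, Krt19, Krt20, Krt23, Krt80 and Krt222, chosen by gene name from the non-control spots of 2 arrays. They were 8 of the 24323 named genes on the array and were read by 10 probes, each printed once per array, with a pair of probes for Krt8 and for Krt222 and a single probe for the others. Total RNA of wild-type mice was hybridised to 1 tooth array and 1 skin array of the same slide, each labelled with Cy3. The labels gave postnatal day 0 for both tissues, while the study's methods named the following day. The methods also gave C57BL/6J as the wild-type strain, and elsewhere the study described an incisor tooth germ with its epithelium and mesenchyme, and skin with its hair follicles. The number of animals behind each array is not given in the sources used here.

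Keratins form intermediate filaments from an acidic type I chain paired with a basic type II chain. Simple epithelia build them mainly from keratin 8 (type II) and keratin 18 (type I), often with keratins 7 and 19 in ducts and glands, whereas stratified epithelia such as epidermis and hair use other pairs. Keratin 20 is known from intestinal epithelium and from Merkel cells, the touch receptors of skin. The type I genes Krt19, Krt20, Krt23 and Krt222 lay with the type I cluster on chromosome 11. The type II genes Krt7, Krt8 and Krt80 lay in the type II cluster on chromosome 15, where Krt18 is the type I exception beside Krt8.

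The members did not move together. Krt18 was 6.65-fold higher in tooth, Krt23 was 50.0-fold higher in skin, and Krt20 was well above background in skin only, at least 16.1-fold higher there. Krt19 was 2.05-fold higher in skin. Krt8, Krt7, Krt80 and Krt222 differed by less than 2-fold, with Krt8 higher in tooth by both of its probes. A signal well above background was called for all 8 members in skin and for 7, all but Krt20, in tooth. Values are processed intensities on a linear scale, or log2 intensities relative to the 75th percentile of the same array, and every difference is skin minus tooth on that log2 scale. That percentile stood at 428 for tooth and 276 for skin, so equal intensities are scaled to a higher level in skin. The error given is the SD from the error model of the extraction software, which covers the spot and not animals, dissection or labelling. With 1 array per tissue no difference could be tested and none has a replicate check. In whole tissue, fewer cells of a type and less RNA per cell cannot be told apart.

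The probes are 60-base stretches of the transcripts, with positions given by the array's design in mm9. Those of Krt18, of Krt8 (the probe with a frame free of stop codons and no polyadenylation signal) and of Krt23 are shown because the results turn on these transcripts. All are written 5′ to 3′ along the transcript, and the capitals in the Krt18 probe mark the first stop codon of its longest open frame, at base 50.
Krt18, chr15:101862341-101862400, plus strand: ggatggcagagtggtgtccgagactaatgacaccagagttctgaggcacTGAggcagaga
Krt8, chr15:101828827-101828886, minus strand: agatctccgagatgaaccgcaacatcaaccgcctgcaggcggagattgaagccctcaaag
Krt23, chr11:99339393-99339452, minus strand: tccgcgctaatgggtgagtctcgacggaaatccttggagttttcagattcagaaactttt
The brighter Krt8 probe, at chr15:101827138-101827197 on the minus strand, holds the polyadenylation hexamer AATAAA. Whether a probe lies in coding or untranslated sequence was not analysed here.

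Krt18 encodes the type I chain of the primary simple-epithelial pair. Its intensity was 4834 in tooth and 470 in skin, which gave scaled levels of 3.50 and 0.77. The difference was -2.73 ± 0.20 (error-model SD), at percentile 1.86 of the 15271 genes measured on both arrays. Krt8 encodes its type II partner. The brighter Krt8 probe read 1547 in tooth and 666 in skin, and the scaled levels of 1.85 and 1.27 gave a difference of -0.58 ± 0.20. The dimmer Krt8 probe read 418 and 147, scaled levels of -0.03 and -0.91 and a difference of -0.88 ± 0.21 (1.84-fold). Both probes were thus higher in tooth, and neither reached 2-fold. The partners differed in extent, since the Krt18 difference lay below that of Krt8 by 2.15 ± 0.29 (log2, 4.43-fold) with the brighter Krt8 probe and by 1.86 ± 0.29 (3.62-fold) with the dimmer. This gap compares each probe with itself on both arrays, so any single scaling factor per array leaves it as it is.

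**Figure D1:**
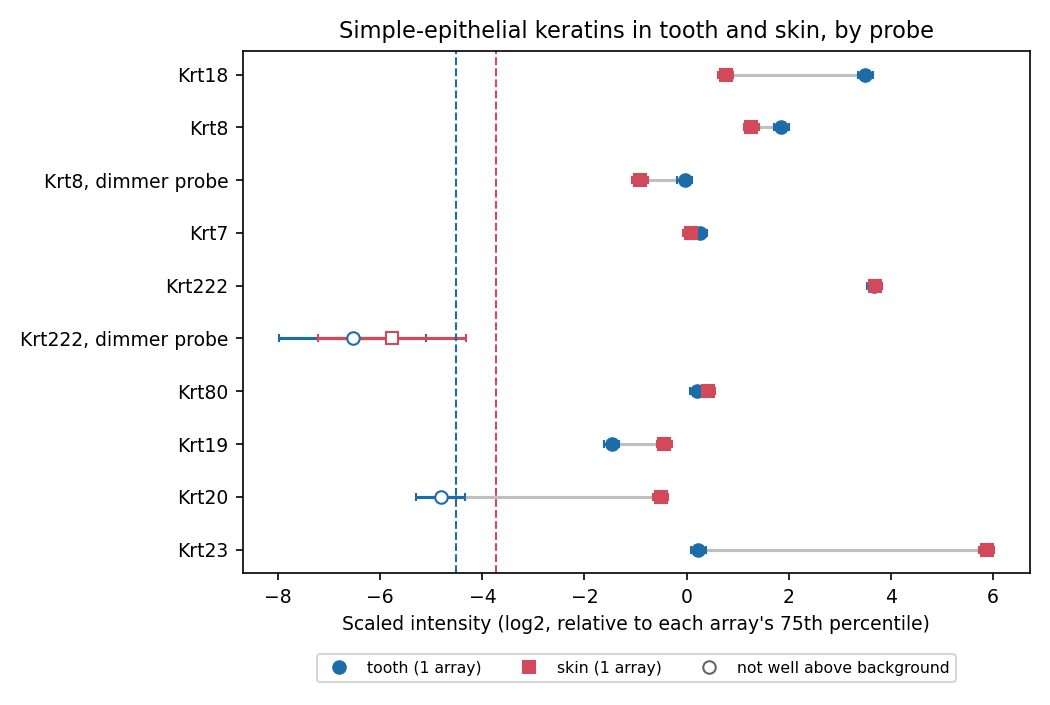
Scaled intensity (log2, relative to each array's 75th percentile) of the 10 probes of the simple-epithelial keratins on the tooth array (circles) and the skin array (squares), with bars of 1 error-model SD. Open symbols are not well above background and dashed lines mark the lowest signal called well above background on each array (-4.52 in tooth, -3.73 in skin). Krt18 and both Krt8 probes lie higher in tooth, Krt19, Krt20 and Krt23 higher in skin.

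Krt7, the type II keratin of ductal and glandular epithelia (chr15:101253718-101253777, plus strand), read 513 in tooth and 292 in skin. After scaling its levels were 0.26 and 0.08, a difference of -0.18 ± 0.21 that was smaller than its error. Krt80, a further type II keratin (chr15:101180014-101180073, minus strand), read 496 and 368, with scaled levels of 0.21 and 0.41. Its difference of 0.20 ± 0.21 was also within the error, and turned to -0.05 with median shift and -0.42 with spike-in scaling. None of the 3 type II members therefore differed by 2-fold, and their median difference was -0.18. The 5 type I members ranged from -2.73 to 5.64, with 3 past 2-fold towards skin and 1 towards tooth.

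Krt19, the short type I keratin that lacks most of the tail domain (chr11:100002392-100002451, minus strand), read 155 in tooth and 205 in skin, with scaled levels of -1.47 and -0.43. The difference of 1.03 ± 0.21 lay at the 2-fold threshold, just inside it. It fell below the threshold under median shift (0.78), spike-in scaling (0.41), quantile normalization (0.98) and normexp background correction (0.85). The probe was therefore higher in skin under each of these, but a 2-fold difference depended on the scaling. Relative to the type II chains with which it can pair, Krt19 was higher in skin by 1.22 ± 0.30 against Krt7 and by 1.62 ± 0.29 against the brighter Krt8 probe.

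Krt23, a type I keratin that the study lists among epidermal keratins of the hair follicle, had the largest difference of the 8. It read 503 in tooth and 16222 in skin, and the scaled levels were 0.23 and 5.88. The difference was 5.64 ± 0.20, at percentile 99.3 of the genes measured on both arrays. Its transcript was well above background in tooth too, so the 50.0-fold is a measured ratio and not a bound. Spike-in scaling gave the smallest difference, 5.02.

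Krt20 read 15.2 in tooth, not well above background, and 194 in skin. The probe lay at chr11:99289776-99289835 on the minus strand. Against the lowest tooth signal called well above background, the skin value was 16.1-fold higher (4.01 on the log2 scale), which is the bound given for it. Normexp background correction, which adds an offset to every intensity, gave a difference of 2.12. The Merkel cell markers were read beside it, because keratin 20 is a marker of these cells. Of 9 markers 8 were measured, 3 of them well above background in skin only. These were the transcription factors Atoh1 (at least 8.62-fold higher in skin), Insm1 (at least 15.4-fold) and Pou4f3 (at least 2.59-fold). Another 3 were higher in tooth, namely Isl1 (at least 10.6-fold), the peptide hormone gene Cck (-2.45) and the mechanosensitive channel gene Piezo2 (-1.99). Sox2 (0.64) and Rab3c (0.29) were within 2-fold, and Syt7 was dim on both arrays. Under normexp the count of Merkel cell markers at least 2-fold higher in skin fell from 3 to 2. The summed scaled level of the 8 measured markers was 45.2 in tooth and 52.0 in skin. Rab3c, at 5.35 and 5.64 (log2), made up most of both sums, which therefore do not follow the other markers. The 3 Rab3c probes did not all give such a level. A second read 4.51 and 4.80, but another (-6.52 and -4.70) was well above background on neither array. The part of Merkel cells in the Krt20 value was not tested.

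The 2 probes for Krt222 did not give the same reading. The brighter probe read 5481 in tooth and 3560 in skin, with scaled levels of 3.68 and 3.69 and a difference of 0.01 ± 0.20, which became -0.24 with median shift and -0.62 with spike-in scaling. The other probe, at chr11:99094648-99094707, read 4.60 and 5.06, on neither array well above background. The brighter probe holds a CA repeat of 22 bases. A stretch of 30 bases around the repeat is shown, from the probe at chr11:99095480-99095539 on the minus strand, with the repeat in capitals.
Krt222: ttgtACACACACACACACACACACACccgg
Of all 55675 probes, 62 held a CA or GT repeat at least as long, and 100% of them were well above background on both arrays, against 56.7% of all probes in tooth and 52.5% in skin. The 17 with a CA repeat, the Krt222 probe included, had a median intensity of 6112 in tooth and 4407 in skin, against 38.5 and 29.5 over all probes. Their median difference was 0.12, with quartiles of 0.09 and 0.15. The 45 with a GT repeat were brighter, with medians of 18629 and 16935, and had a median difference of 0.48. The brighter Krt222 intensities were somewhat under the medians of the CA set, and its difference of 0.01 lay below that set's lower quartile. The part of Krt222 transcript in its value was not tested.

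Ordered by difference, the members ran Krt18, Krt8, Krt7, Krt222, Krt80, Krt19, Krt20 and Krt23. Neighbours from Krt8 to Krt80 were separated by less than 2 SDs of their spots' error: Krt8 and Krt7 lay 0.40 ± 0.29 apart, Krt7 and Krt222 0.19 ± 0.29, and Krt222 and Krt80 0.19 ± 0.29. The gaps from Krt18 to Krt8 (2.15 ± 0.29) and from Krt80 to Krt19 (0.83 ± 0.29) were larger than 2 of these SDs. The place of Krt20 next to Krt23 rests on a tooth value that is not well above background.

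**Figure D2:**
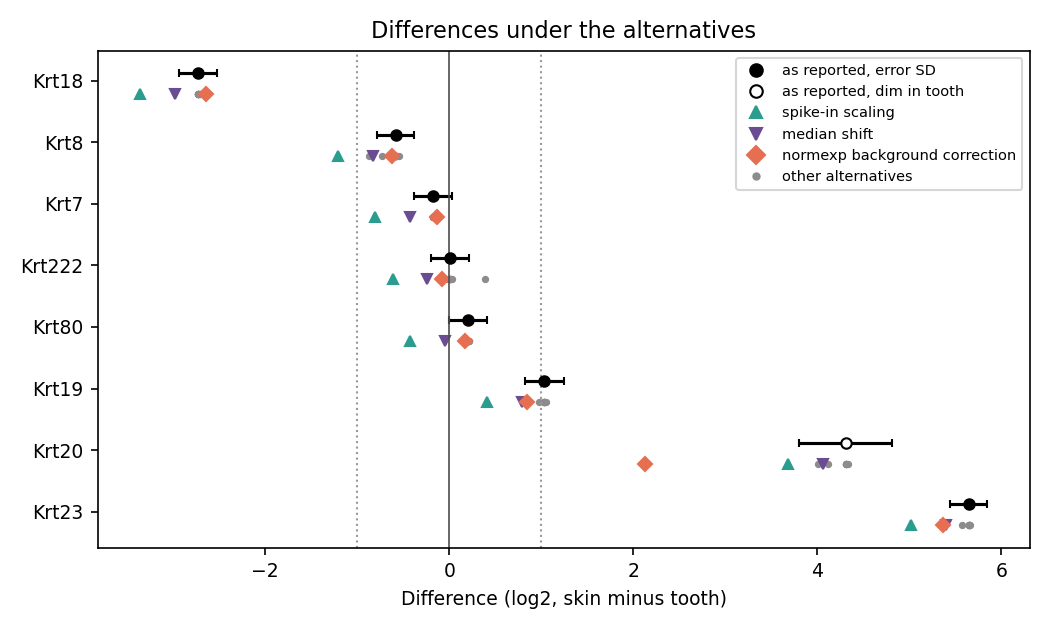
Difference (log2, skin minus tooth) of each simple-epithelial keratin as reported (black, bars of 1 error-model SD) and under each alternative processing (coloured symbols and grey points). Dotted lines mark 2-fold and the open circle is Krt20, dim in tooth. Spike-in scaling lowers every difference, taking Krt8 to -1.21 and Krt19 to 0.41, while Krt18, Krt20 and Krt23 stay beyond 2-fold.

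Of the 17409 named genes measured on 1 array or both, 14.2% passed 2-fold towards skin and 15.5% towards tooth. The members gave 3 of 8 in skin and 1 of 8 in tooth, counts too small to set apart from those shares. At 1.5-fold the shares of all genes were 21.3% and 24.8%, and the members again gave 3 and 1. Krt8 fell just short of 1.5-fold towards tooth by its brighter probe (1.498-fold), while its dimmer probe (1.84-fold) passed. At 4-fold they were 7.41% and 6.29%, and the members gave 2 (Krt20 and Krt23) and 1 (Krt18). The median difference of the members was 0.11, beside -0.04 over all genes with quartiles of -0.58 and 0.47. The members' median took the sign of the scaling, with -0.14 under median shift and -0.52 under spike-in scaling.

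**Figure D3:**
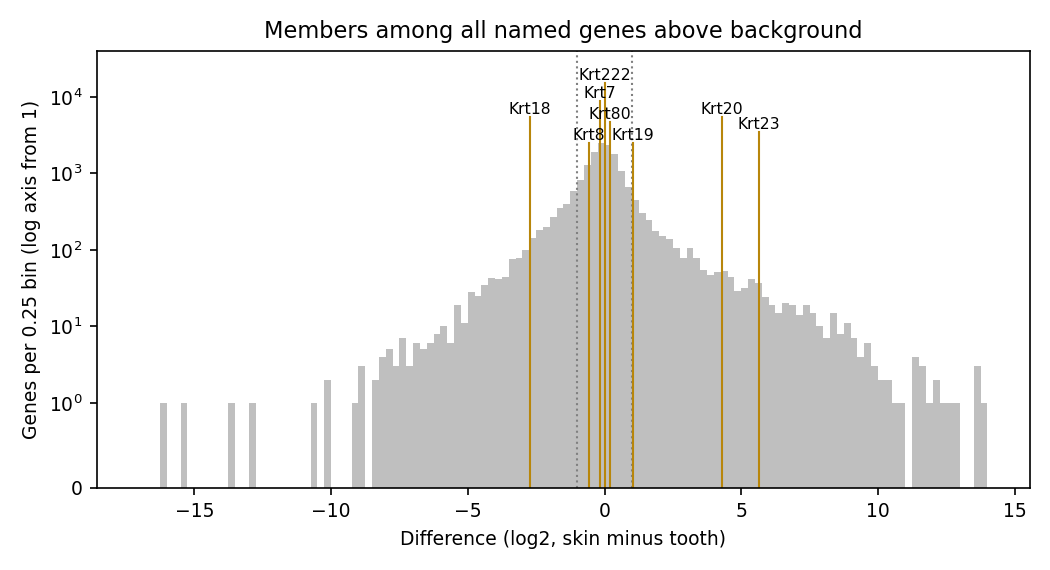
Distribution of the difference (log2, skin minus tooth) over the 17409 named genes measured on 1 array or both, as genes per 0.25 bin on a log axis, with values not above background used as measured. Vertical lines mark the 8 simple-epithelial keratins and dotted lines 2-fold. Krt18 lies in the tail towards tooth, Krt20 and Krt23 in the tail towards skin, and the other members near the centre.

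Most of the other keratin genes were higher in skin. A set of 42 was named Krt with a number and no letter after it. It left out keratins with a letter, such as Krt6a, which was measured on both arrays and differed by -0.36. Of the 42, 39 were measured on 1 array or both, with a median difference of 4.56. At least 2-fold higher in skin were 32 (82.1%) of these. Those of the 39 measured on both arrays ranged from 0.68 to 11.98. The 3 with values past 2-fold towards tooth, Krt4, Krt76 and Krt84, were not well above background in skin and have no measured fold. Thus Krt18 was the only such keratin measured on both arrays to pass 2-fold towards tooth, joined by Krt8 under spike-in scaling. Some neighbours in a cluster had differences close to each other and others did not. Krt8 lay 50.5 kb from Krt78 (7.98), a type II keratin gene, and 35.2 kb from Krt18. Krt7 lay 9.84 kb from the hair keratin gene Krt87 (5.39). Krt19 lay 9.06 kb from Krt15 (4.56), a keratin of basal and hair follicle stem cells. Krt20 and Krt23 were neighbours 49.6 kb apart and both were higher in skin. The nearest measured keratin genes on either side of them, Krt12 and Krt40, were well above background in skin only. Krt39, which lay between Krt23 and Krt40, was well above background on neither array and was passed over.

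**Figure D4:**
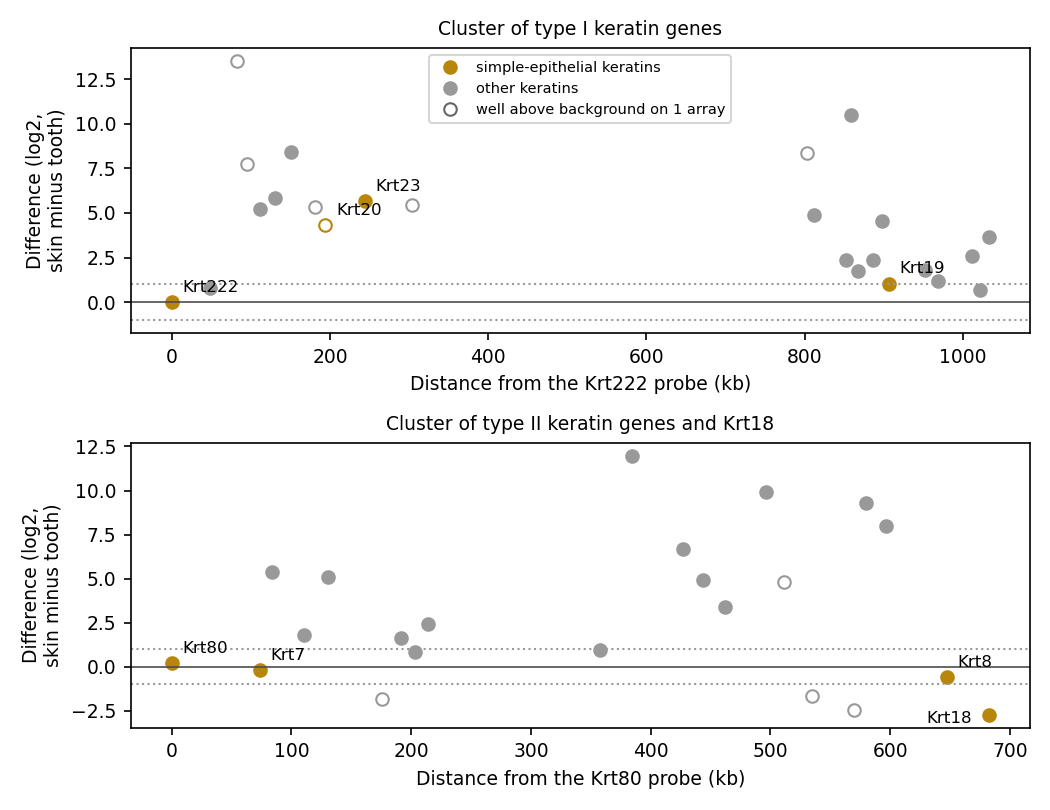
Difference (log2, skin minus tooth) of the keratin genes with a mapped probe well above background on at least 1 array. Keratins with a letter after the number, such as Krt6a, are left out. Distance (kb) is from the first probe: Krt222 in the type I cluster (upper panel), Krt80 in the type II cluster with Krt18 (lower). Simple-epithelial keratins are coloured, other keratins grey, and open symbols are well above background on 1 array. Krt8 and Krt18 lie low at the end of a cluster in which most genes are higher in skin.

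Proteins that bind or anchor keratin filaments were read next, in a list that also held Vim, itself an intermediate filament gene. All 20 genes of the list were well above background on both arrays. By their brightest probes 15 passed 2-fold towards skin and 0 towards tooth, and the median was 1.88. For Dst the choice of probe set the direction. Its brightest probe gave 1.33, while the others, also well above background on both arrays, gave -1.96 and -1.88. The largest differences were those of Pof1b (5.64), an actin-binding protein of epithelial junctions, Trim29 (3.55), Eppk1 (3.09), which encodes epiplakin, and Jup (2.69), which encodes plakoglobin. Fam83h, which encodes a keratin-associated protein in which mutations cause enamel defects, was higher in skin by 1.72. Vim, the mesenchymal intermediate filament gene (-0.98), and Tchp, which encodes trichoplein (-0.70), had the lowest values, and the count towards tooth rose to 2 under spike-in scaling and to 1 under each of median shift, quantile normalization and normexp. Among 18 transcription factors of epithelial genes 14 passed 2-fold towards skin and 0 towards tooth, with a median of 2.08. Gata3 (7.75), Grhl1 (5.67), Ovol1 (5.39) and Tfap2c (4.40) led. Trp63, the master regulator of stratified epithelium, was near 0 (0.16). Elf3 was dim in skin and close to background in tooth, so no fold is given.

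General epithelial markers give a measure of the members that is free of the scaling between arrays. The 10 markers had a median difference of 1.32, with Cldn4 (3.69) highest and Cdh1 (0.06), the E-cadherin gene, lowest, and 5 were at least 2-fold higher in skin. Relative to that median the Krt18 difference was -4.05, that of Krt8 -1.90 and that of Krt19 -0.29. Krt18, Krt8, Krt7 and Krt222 lay below all 10 markers. Krt222 (0.01 ± 0.20, from its repeat-bearing probe) lay below Cdh1 by less than its own error. Krt7 (-0.18 ± 0.21) lay below Cdh1 by little more than its own. Krt80 lay below 9 of the 10, Krt19 between the lower 5 and the upper 5, and Krt20 and Krt23 above all 10.

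**Figure D5:**
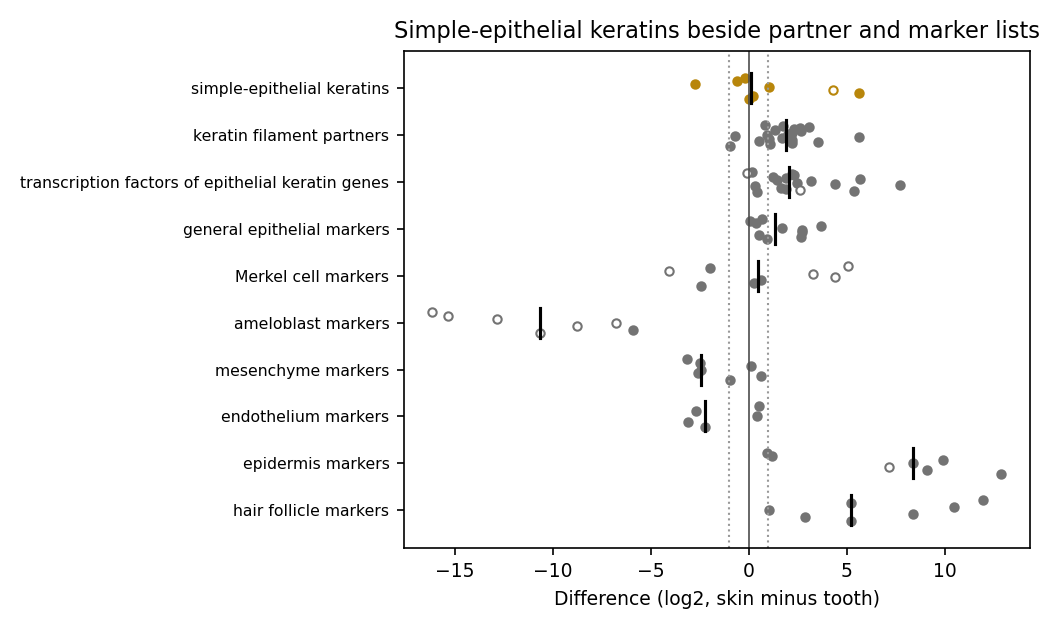
Difference (log2, skin minus tooth) of each gene of the simple-epithelial keratins and of 9 partner and marker lists, with black bars at the medians and dotted lines at 2-fold. Open symbols were well above background on 1 array and are plotted as measured. The keratins' median is 0.11, against 1.88 for filament partners and 1.32 for general epithelial markers.

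Markers of the tissues went with their labels. All 7 ameloblast markers, among them Amelx and Ambn of the enamel matrix, were at least 2-fold higher in tooth, with 6 not well above background in skin and a summed scaled level of 2194 in tooth and 0.288 in skin. Epidermis markers passed 2-fold towards skin for 6 of 7 (median 8.39), and for 5 under median shift, quantile normalization and spike-in scaling. Hair follicle markers did so for 7 of 7 (median 5.22), and for 6 under each of those and normexp, with the brightest Krt85 probe at the threshold (1.01). The other Krt85 probes, also well above background on both arrays, gave 3.46 and 9.22. The tooth array also held at least 2-fold more of 4 of 7 mesenchyme markers (median -2.43) and 3 of 5 endothelium markers (median -2.22). The mesenchyme count was 5 under each of median shift, quantile normalization, spike-in scaling and normexp. The summed levels were 1334 and 283 for mesenchyme. For endothelium they were 32.1 and 38.4, mostly from the brighter Kdr probe (0.43), while the other Kdr probe gave -2.19. The 2 list genes nearest to Krt18 in difference, of 109 compared over 2 tissues, were Cdh5 (-2.70) and Pdgfrb (-2.61), while 61 named genes lay within 0.1 of it. For Krt23 the nearest were Pof1b (5.64) and Grhl1 (5.67), with 10 named genes within 0.1.

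Other epithelia in which keratins 8 and 18 occur were poorly represented or divided. Of 7 gland markers 2 were measured, the water channel gene Aqp5 in skin only (at least 16.1-fold higher) and Bhlha15 in tooth only (at least 7.05-fold). Of 4 mesothelium markers Msln alone was measured, in tooth only (at least 7.78-fold higher), while Upk3b, Lrrn4 and Wt1 were dim on both. Of 6 periderm markers 2 were at least 2-fold higher in skin, Grhl3 (3.16) and Sfn (2.18), and Krt4 was measured in tooth only. The 4 oral mucosa markers split into Krt78 (7.98) and Krt13 (2.36) in skin and Krt4 and Krt76 measured in tooth only. The dimmer Krt13 probe, well above background on both arrays, gave 0.44. Under normexp neither Krt4 nor Krt76 passed 2-fold towards tooth. Of 4 stratum intermedium markers Alpl (-7.04) and Cldn5 (-1.23) passed 2-fold towards tooth, while Notch1 (0.81) and Cldn1 (0.50) were within 2-fold with the higher value in skin. The part of each of these cell types in the Krt18 and Krt8 values was not tested.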

How the data were processed

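Spot values as deposited were linear intensities that Agilent Feature Extraction 10.7.3.1 had corrected for background, with dim values replaced by surrogates. The authors also deposited a ratio of each intensity to 1 factor per array, used as an alternative. The methods named GeneSpring, a percentile shift and a filter on low signal.

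Each array held 62976 spots, 3671 of them controls. Outlier spots were removed, which left 55675 probes on both arrays. From log2 intensities each array's 75th percentile (428 in tooth, 276 in skin) was subtracted. The brightest probe stood for a gene. A probe dim on 1 array gave only a bound, the bright value against the higher of its own dim value and the lowest signal called well above background. Folds written as "at least" for such probes are these bounds. Some dim probes read above that lowest signal, so the bounds are not strict limits. Of 33182 named probes, 27234 were named by accession through RefSeq (GRCm38.p6, names only) and the rest by the array. Called means at least 2-fold. Scripts in Python 3.11.15 with pandas 2.3.3, and limma 3.58.1 for normexp (offset 50), were tested on simulated data. All members, and up to 4 list genes per direction and 2 within 2-fold, could be named. The number of arrays limits the precision. The members and lists were chosen with earlier results of these data known.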

Additional observations from a re-analysis of the deposited data

How the results depend on the processing

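Under the scalings, background correction, filters, probe rules and deposited ratios tried, no member called at 2-fold changed direction. The number of members at least 2-fold higher in tooth was 1 in every setting except spike-in scaling, which gave 2 as Krt8 joined Krt18. The number in skin was 3 or 2, with Krt19 or, where both arrays had to be above background, Krt20 leaving. The median difference of the members was 0.11, -0.14 under median shift and -0.52 under spike-in scaling. These scalings moved the median of all genes by -0.25 and -0.62, and Krt80 turned from 0.20 to -0.05 and -0.42 under them, so the signs of Krt80 and Krt222 are not settled. Krt18 ranged from -3.36 to -2.64, Krt23 from 5.02 to 5.66 and the gap of Krt18 below Krt8 from -2.16 to -1.86. Krt222 rests on its repeat-bearing probe. No paired analysis was possible because each tissue had 1 array, and for the same reason no array could be left out in turn.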
